A study of Mus musculus with 4 samples.

Results

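The regions described here are the open chromatin regions of the 4 genes that encode the TCF and LEF transcription factors of the mouse, Tcf7, Tcf7l1, Tcf7l2 and Lef1. They were chosen by position, as every ATAC-seq peak within 150 kb of the start site or inside the gene body, and the 4 genes were themselves selected on the presence and the rank of their peaks in these lists. Presence and rank are therefore given as a description, without a test. Peaks of different libraries that shared at least 1 bp were joined, which gave 131 regions of 80380 in the series, with 35 at Tcf7, 40 at Tcf7l1, 27 at Tcf7l2 and 29 at Lef1.

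ATAC-seq marks open chromatin with a transposase that inserts into DNA not covered by nucleosomes. The study compared day 4 embryoid bodies (EBs) of wild type (WT) with EBs of CTCF-K20R, in which CRISPR/Cas9 had changed lysine 20 of the insulator protein CTCF to arginine in mouse embryonic stem cells of the line E14Tg2A. There were 2 libraries of each genotype, called WT 1, WT 2, K20R 1 and K20R 2 below, and how many clones the K20R libraries stand for is not given in the sources used here. Cells of both genotypes had been grown on inactivated fibroblasts with leukemia inhibitory factor and with the inhibitors CHIR99021 and PD0325901, and then formed EBs in hanging drops in serum medium without that factor. CHIR99021 inhibits GSK3, the kinase that marks β-catenin for destruction.

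TCF and LEF factors bind DNA through an HMG box and carry the output of canonical Wnt signalling. Without a Wnt signal they recruit Groucho (TLE) corepressors, and when β-catenin enters the nucleus it binds them and their target genes are switched on. Tcf7l1 is mainly a repressor in embryonic stem cells, Tcf7 and Lef1 act mostly as activators with β-catenin, and Tcf7l2 can do both. In the early embryo these factors act in the primitive streak and the mesoderm that leaves it.

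The sequences below are the regions on which the results turn. Each is the 100 bp on both sides of the strongest summit in mm10, read on the plus strand from the RefSeq GRCm38.p6 genome, in lower case with motif matches in capitals. The letters searched, on both strands, were CTTTGAT and CTTTGTT for TCF/LEF (the second is also the core bound by SOX factors), TCACACCT for T-box factors, ATGCAAAT for the octamer, TGATAAG and AGATAAG for GATA factors, TGAGTCA for AP-1, and a consensus for CTCF. The first 3 had a peak in both WT lists, with a mean percentile of at least 50, and none in either K20R list.
Tcf7l2, 41.3 kb upstream, chr19:55700460-55700660, plus strand: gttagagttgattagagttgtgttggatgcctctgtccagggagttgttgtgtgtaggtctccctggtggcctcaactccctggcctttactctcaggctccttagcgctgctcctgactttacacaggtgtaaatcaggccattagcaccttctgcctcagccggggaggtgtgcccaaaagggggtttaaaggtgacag
Tcf7l1, 147.5 kb downstream, intron, chr6:72641656-72641856, plus strand: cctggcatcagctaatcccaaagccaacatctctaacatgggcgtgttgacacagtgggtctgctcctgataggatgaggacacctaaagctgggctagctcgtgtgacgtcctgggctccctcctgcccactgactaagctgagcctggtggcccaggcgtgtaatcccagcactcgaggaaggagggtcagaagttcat
Lef1, 49.7 kb downstream, intron, chr3:131160024-131160224, plus strand: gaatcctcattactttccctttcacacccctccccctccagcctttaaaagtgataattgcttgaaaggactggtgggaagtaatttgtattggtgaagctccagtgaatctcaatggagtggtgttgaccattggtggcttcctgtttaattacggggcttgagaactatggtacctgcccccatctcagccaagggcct
None of these windows held any of the motifs. The next 4 had a peak in all 4 lists and belong to those ranked furthest below WT in K20R at their loci, and TCF/LEF and GATA matches are in capitals.
Tcf7, 50.0 kb upstream, chr11:52332888-52333088, plus strand: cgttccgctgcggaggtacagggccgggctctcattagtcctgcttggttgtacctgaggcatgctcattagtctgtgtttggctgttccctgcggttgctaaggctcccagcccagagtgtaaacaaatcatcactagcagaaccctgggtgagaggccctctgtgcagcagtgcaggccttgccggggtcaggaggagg
Lef1, 148.0 kb upstream, GATA, chr3:130962333-130962533, plus strand: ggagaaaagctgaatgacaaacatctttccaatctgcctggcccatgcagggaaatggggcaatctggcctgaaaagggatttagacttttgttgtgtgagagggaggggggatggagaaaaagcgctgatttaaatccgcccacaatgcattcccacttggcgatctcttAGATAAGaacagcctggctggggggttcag
Tcf7l2, 12.8 kb downstream, intron, chr19:55754495-55754695, plus strand: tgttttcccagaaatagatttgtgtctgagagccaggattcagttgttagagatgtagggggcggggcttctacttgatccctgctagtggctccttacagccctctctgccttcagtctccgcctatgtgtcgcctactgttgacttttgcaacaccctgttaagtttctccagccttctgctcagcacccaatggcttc
Tcf7l1, 77.5 kb downstream, intron, TCF/LEF, chr6:72711636-72711836, plus strand: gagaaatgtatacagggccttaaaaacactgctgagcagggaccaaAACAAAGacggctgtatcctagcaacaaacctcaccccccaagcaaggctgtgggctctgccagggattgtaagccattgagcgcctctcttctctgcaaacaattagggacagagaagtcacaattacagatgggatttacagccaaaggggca
The last 4 summit windows are 2 regions that ranked higher in K20R, the distal region with the highest ranks at the 4 loci, and a region with a CTCF match.
Tcf7l1, 5.9 kb upstream, AP-1, chr6:72795018-72795218, plus strand: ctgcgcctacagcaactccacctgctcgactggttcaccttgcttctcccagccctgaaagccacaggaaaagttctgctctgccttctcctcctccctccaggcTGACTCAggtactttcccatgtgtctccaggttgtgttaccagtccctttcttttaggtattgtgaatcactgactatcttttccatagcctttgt
Lef1, 25.5 kb upstream, TCF/LEF, chr3:131084862-131085062, plus strand: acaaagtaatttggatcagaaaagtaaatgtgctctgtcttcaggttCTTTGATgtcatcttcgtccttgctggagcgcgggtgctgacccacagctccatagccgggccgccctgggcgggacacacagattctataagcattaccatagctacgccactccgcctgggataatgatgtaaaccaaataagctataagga
Tcf7l1, 137.7 kb upstream, AP-1, chr6:72926849-72927049, plus strand: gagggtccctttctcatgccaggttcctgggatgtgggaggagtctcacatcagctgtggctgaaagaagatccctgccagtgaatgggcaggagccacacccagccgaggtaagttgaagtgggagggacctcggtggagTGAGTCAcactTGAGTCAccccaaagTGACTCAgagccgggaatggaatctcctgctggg
Tcf7, 138.5 kb upstream, CTCF, chr11:52421435-52421635, plus strand: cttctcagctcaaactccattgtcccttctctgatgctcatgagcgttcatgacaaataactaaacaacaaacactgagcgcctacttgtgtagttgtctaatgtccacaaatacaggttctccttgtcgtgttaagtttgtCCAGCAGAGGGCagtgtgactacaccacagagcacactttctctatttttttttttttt
The promoter inside Tcf7l2 is given by the 250 bases before its RefSeq start, from the promoter set of GRCm38.p6, with a TCF/LEF match in capitals.
Tcf7l2 internal promoter, chr19:55895071-55895320, plus strand: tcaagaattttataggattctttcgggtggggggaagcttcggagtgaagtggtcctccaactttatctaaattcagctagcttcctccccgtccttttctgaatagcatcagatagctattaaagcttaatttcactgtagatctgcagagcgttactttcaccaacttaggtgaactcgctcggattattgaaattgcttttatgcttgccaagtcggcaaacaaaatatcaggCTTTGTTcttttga

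Of the 131 regions, 53 had a peak in all 4 lists, 15 had one in both WT lists and in neither K20R list (WT-restricted), and 2 had one in both K20R lists and in neither WT list (K20R-restricted). WT-restricted regions were 11.5% of the regions of the 4 loci, beside 10.4 percent over all regions of the series, and K20R-restricted regions were 1.53%, beside 3.1 percent. The WT-restricted share is close to that of the series, so the number of regions absent from the K20R lists does not set these loci apart. The remaining 61 regions were mixed, and of these 12 lacked a peak in 1 K20R list alone, 24 had a peak in a single WT list and 18 in a single K20R list. The shares of these kinds of mixed region over the series were not computed.

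The lists differed in length, which moves every count of presence. They held 59783 and 66703 peaks in WT and 51823 and 55832 in K20R, and covered 44.8 and 51.2 Mb against 39.8 and 46.7 Mb. When each list was shortened to the same number of strongest peaks, 7 regions of the 4 loci were WT-restricted. Peak names carry running numbers, and the deposited lists kept 51.7% and 50.5% of them for WT against 58.6% and 60.8% for K20R, which means that a called peak may have been left off a list. Of the 15 WT-restricted regions, 5 had no number missing at their place in both K20R lists, and of the 2 K20R-restricted regions none had in both WT lists. Promoter peaks were also read at marker genes of cell types. All 10 marker genes of pluripotent, epiblast and early mesoderm cells had a promoter peak in all 4 lists. So did 4 of 8 fibroblast markers, while the other 4 fibroblast markers had none. Over all protein-coding genes 14007 of 21924 had a promoter peak in all 4 lists, so these counts do not identify the cells. The mutation itself cannot be read from peak lists. In a culture of mixed cells, fewer cells with an open region and less opening in each cell cannot be told apart.

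**Figure D1:**
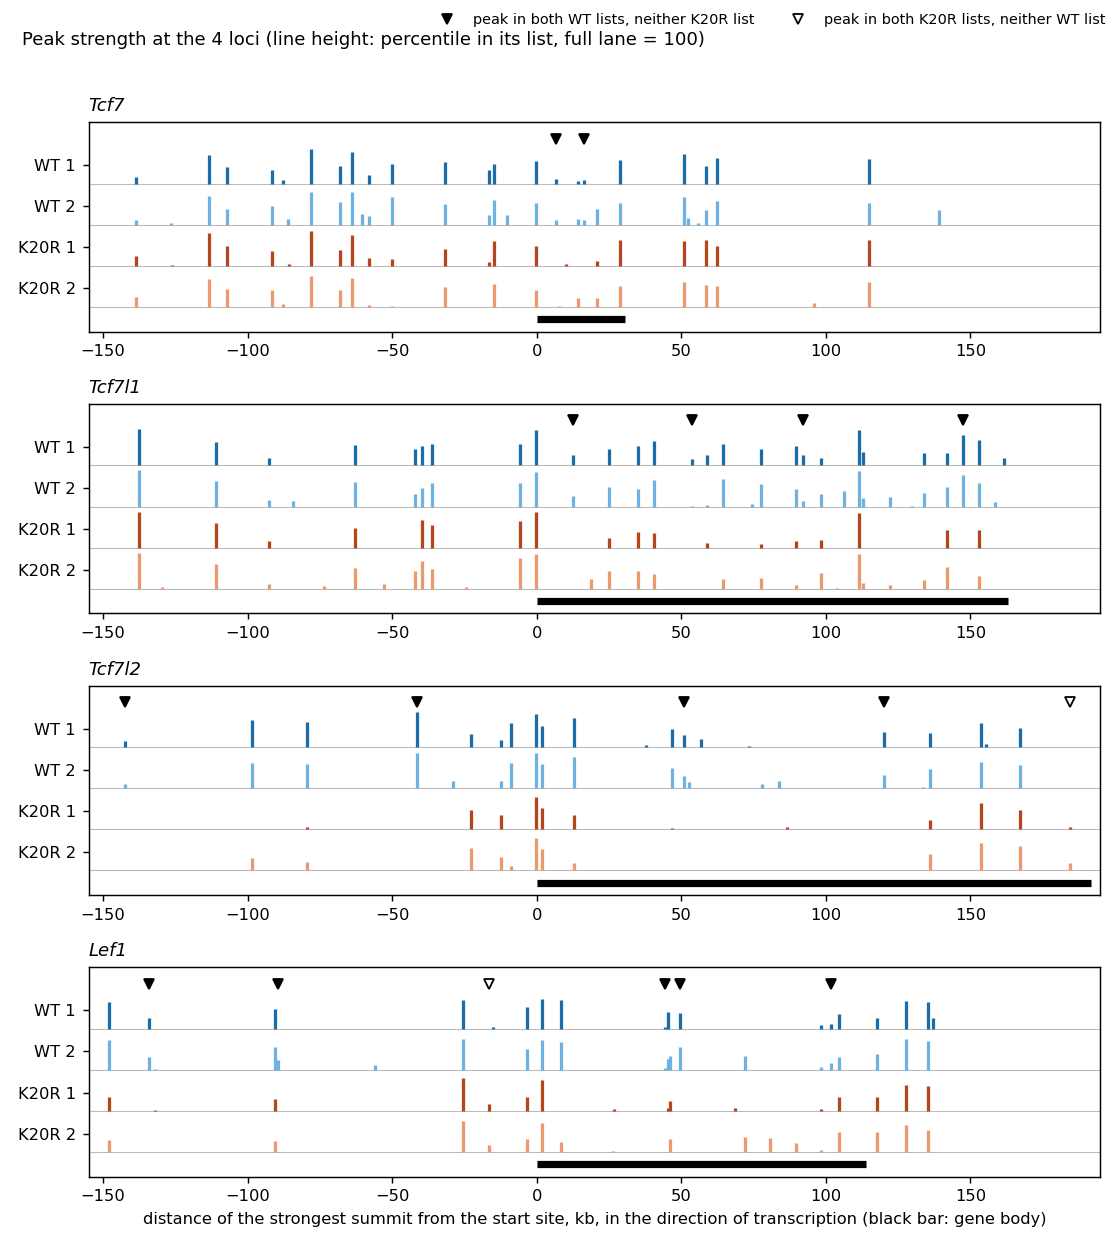
Peaks at the 4 loci by distance of the strongest summit from the start site, in kb and in the direction of transcription, in 1 lane per library. Line height is the percentile of the peak in its own list, filled triangles mark WT-restricted regions and open triangles K20R-restricted ones, and black bars are gene bodies. At Tcf7l2 the tall WT line 41.3 kb upstream and the lines at 120.1 kb have no counterpart in K20R.

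The presence of a peak varied between the 4 loci. Tcf7 had 18 regions in all 4 lists and 2 WT-restricted ones, Tcf7l1 had 17 and 4, Tcf7l2 had 8 and 4, and Lef1 had 10 and 5. The share of regions found in all 4 lists was thus 51.4% at Tcf7 and 29.6% at Tcf7l2, beside 47.9% over the series. At Tcf7l2 20 regions had a peak in WT 1 and 20 in WT 2, against 12 in K20R 1 and 12 in K20R 2. At Tcf7 the numbers were 22 and 29 against 22 and 24, so the genotypes overlapped there. Of the 80380 regions of the series, 58241 and 65355 had a peak in the WT lists, against 50328 and 55099 in the K20R lists. Fewer regions with a peak in K20R were thus seen over the series as well. The 10 regions with their summit in a promoter of a member or of another gene had a peak in every list.

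Peak strength was compared by rank. Each peak was ranked by its −log10 p within its own list, and the rank is given as a percentile with the strongest peak at 100. Among the 53 regions with a peak in all 4 lists, both K20R percentiles lay below both WT percentiles in 25 (47.2%) and above both in 9 (17.0%), beside 34.8 and 18.6 percent of all 38527 such regions of the series. The median difference, K20R minus WT, was -3.38 percentile points at the 4 loci and -1.52 over the series. Between libraries of a genotype the median absolute difference at these 53 regions was 5.41 points in WT and 6.1 in K20R, and between the means of the genotypes it was 7.62.

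Since the weakest peaks of a longer list push up its other ranks, the regions were also ranked anew among the 38527 found in every list. On this scale 17 of the 53 lay lower in K20R (32.1%) and 13 higher (24.5%), beside 25.5 and 29.2 percent of the series. A level was also compared, the log2 number of reads stacked at the summit, recovered from the deposited fold and p and centred on each library's median over the common regions. It was lower in K20R in 17 of the 53 and higher in 13, beside 23.7 and 35.6 percent. On these 2 scales and on both ranks within the whole list, by p and by fold, 12 regions were lower each time (22.6%) and 5 higher (9.43%), beside 16.9 and 12.5 percent. The split of lower to higher regions was thus 25 to 9 by rank within the whole list and 17 to 13 on both other scales, and the share of lower regions was above that of the series on each of them.

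**Figure D2:**
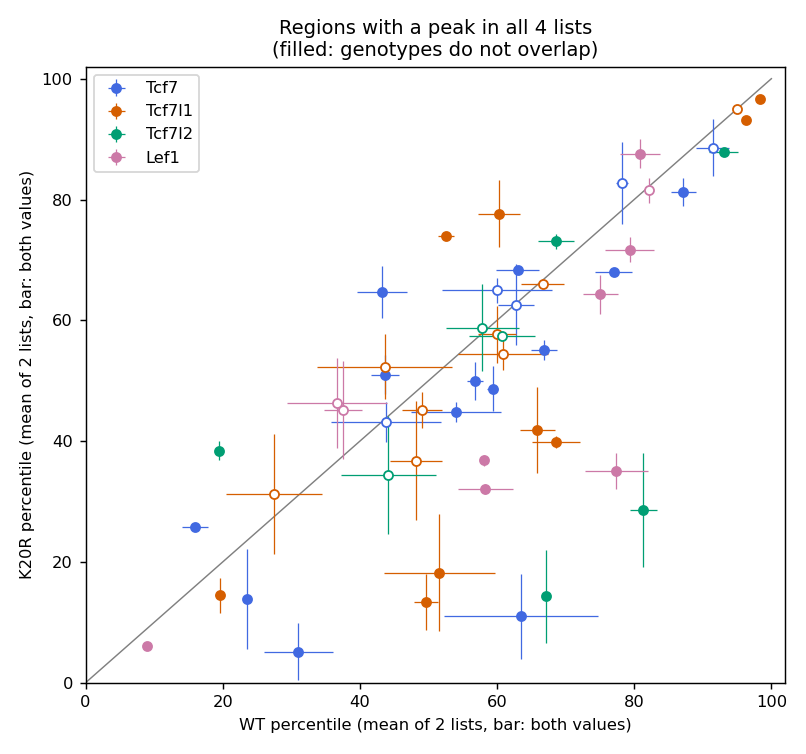
Mean percentile of the 2 WT lists (x axis) and of the 2 K20R lists (y axis) for the 53 regions with a peak in all 4 lists, coloured by locus, with bars from the lower to the higher library and a line of equality. Filled points, 25 below the line and 9 above, are regions whose genotypes do not overlap; those furthest below it lie at the lower right, at Tcf7l2, Lef1 and Tcf7.

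At the start sites of the GENCODE gene set, the promoters of the 4 genes kept a peak in all 4 lists. Tcf7, best known as the T cell factor TCF-1, lies on chr11:52252371-52283014 on the minus strand, and its promoter region, chr11:52282196-52284760, was the weakest of the 4 main promoters. Its percentiles were 60.1 in WT 1, 58.6 in WT 2, 52.5 in K20R 1 and 44.9 in K20R 2, with means of 59.4 ± 1.1 and 48.7 ± 5.3 (SD, n = 2). Both K20R values were below both WT values. Ranked anew, and on the centred level, the genotypes overlapped.

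Lef1 lies on chr3:131110471-131224356 on the plus strand. A single region, chr3:131109723-131113203, spanned both of its annotated start sites and had its summit 1.9 kb downstream of the first. Its percentiles were 81.9 and 82.3 in WT against 83.6 and 79.5 in K20R, so the K20R values lay on both sides of the WT values, and the means of 82.1 ± 0.3 and 81.5 ± 2.9 (SD, n = 2) differed by less than the spread in K20R. On the centred level alone K20R was higher, by 0.04. RefSeq gives a further Lef1 start at chr3:131156294, which was not among the start sites used. The regions on both sides of it did not have a peak in every list. The one 45.4 kb downstream lacked a peak in K20R 2 and the one 46.1 kb downstream in WT 1.

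Tcf7l2, on chr19:55741820-55933654 on the plus strand, had 3 promoter regions. The main one, chr19:55741205-55741929, reached percentiles of 90.9 and 95.1 in WT against 88.0 and 87.7 in K20R. Its K20R values were lower on this scale, when ranked anew and on the centred level, but not by fold. The second, chr19:55742531-55744722, overlapped between the genotypes, with 56.0 and 65.5 in WT against 57.8 and 56.9 in K20R. The third, chr19:55895212-55896850, lies at the start of a short transcript inside the gene, 153.7 kb downstream. Here the percentiles were 66.0 and 71.2 in WT against 71.7 and 74.4 in K20R, higher in K20R on every scale, though K20R 1 exceeded WT 2 narrowly. Its printed sequence holds a match to CTTTGTT, and 1 or both of the TCF/LEF letters stood in 8.06% of 32851 RefSeq promoter windows of that length.

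Tcf7l1, the repressor, lies on chr6:72626378-72789254 on the minus strand and had the promoter with the highest mean percentile of the 4. At chr6:72787225-72789991 its percentiles were 95.3 and 94.6 in WT against 95.2 and 94.8 in K20R, which overlapped. On the centred level K20R was higher by 0.10. In each of the 4 lists the promoters of Tcf7l1 and Tcf7l2 ranked above that of Lef1, and that of Lef1 above that of Tcf7. Tcf7l1 and Tcf7l2 overlapped in WT, since WT 2 ranked Tcf7l2 at 95.1 and Tcf7l1 at 94.6.

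**Figure D3:**
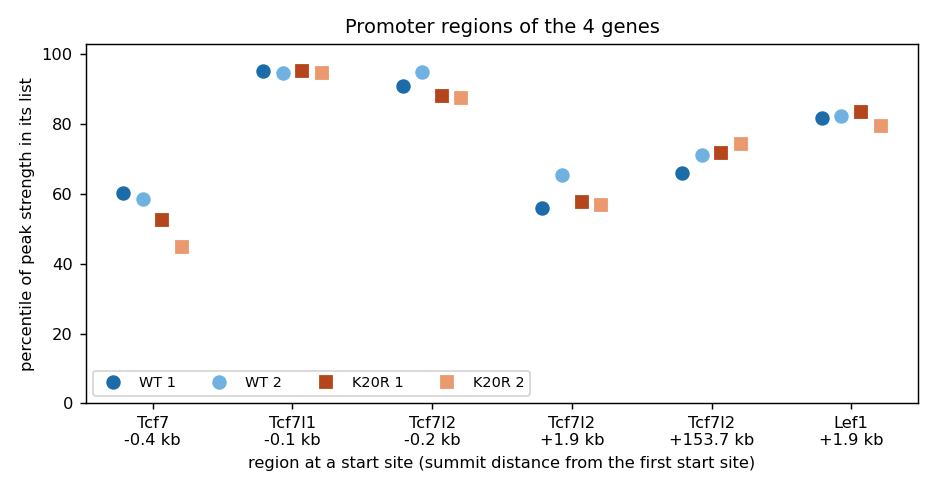
Percentile of peak strength in each list (y axis, 0 to 100) for the 6 regions at annotated start sites of the 4 genes, with circles for WT and squares for K20R. The Tcf7 promoter and the main Tcf7l2 promoter lie lower in both K20R lists, the internal Tcf7l2 promoter higher, and the other 3 regions overlap.

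Promoters with a like pattern over the 4 lists were taken from 14006 other protein-coding genes by the summed absolute difference of the 4 percentiles. The closest to Tcf7 were Htr2c, Ddx58 and Trpm5, and 12 genes lay within 10 points of it. The closest to Tcf7l1 were Hps5 and Gtf2h1, which share 1 promoter region, and D10Wsu102e, with 2394 genes within 10 points. Tcf7l2 was nearest to Platr25 and Catspere2 (825 genes) and Lef1 to Nrcam, Myc and Pdgfc (450 genes). Strong promoters are common, so a near match to Tcf7l1 says little.

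The WT-restricted region with the highest ranks of the whole series lay at Tcf7l2. The region chr19:55700072-55701220, 41.3 kb upstream of the gene and within the noncoding gene 4930552P12Rik, had a percentile of 95.5 in WT 1 and of 95.5 in WT 2. By mean WT percentile it was number 1 of all 8341 WT-restricted regions. Its summit held 111 reads in WT 1 and 166 in WT 2, while the weakest peaks of the 4 loci held 9 reads in K20R 1 and 10 in K20R 2. The main Tcf7l2 promoter held 111 and 197 reads in the same libraries. Neither K20R list had a peak there. In each of them 1 peak number was missing between the neighbouring deposited peaks. A call left off both lists, whatever its strength, therefore cannot be told apart from no call.

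A second strong region of this kind lay in the Tcf7l1 gene. The intronic region chr6:72641140-72642218, 147.5 kb downstream of the start site, had percentiles of 82.1 and 84.7 and summits of 60 and 98 reads in WT 1 and WT 2. It was number 68 of the 8341. No peak number was missing there in either K20R list, so no call between the neighbouring peaks had been left off them. The third, in an intron of Lef1 at chr3:131159340-131160586, had percentiles of 44.1 and 61.5 and summits of 31 and 57 reads in WT, with 2 numbers missing in each K20R list. These 3 regions were 2.29% of the 131, beside 2.14 percent of all regions of the series that were WT-restricted with a mean WT percentile of at least 50. The other 12 WT-restricted regions were weak, with mean WT percentiles from 4.84 to 38.2, and Tcf7 had only such weak ones. The 2 K20R-restricted regions were weak as well, with percentiles of 6.56 and 19.2 in the last part of Tcf7l2, 184.4 kb downstream, and of 20.4 and 18.3 at Lef1, 16.5 kb upstream.

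Among the 8 common regions of Tcf7l2, 3 ranked lower in K20R, the main promoter and a region on each side of it, and 2 ranked higher. These were 37.5% and 25%, beside 34.8 and 18.6 percent of the common regions of the series. The intronic region chr19:55754182-55754894, 12.8 kb downstream, had percentiles of 79.4 and 83.3 in WT against 38.1 and 19.2 in K20R. Its summit held 55 and 87 reads in WT and 18 and 15 in K20R, and the centred log2 level differed by -2.12 (K20R minus WT). The region chr19:55662107-55662732, 79.4 kb upstream and also within the noncoding gene 4930552P12Rik, had percentiles of 67.5 and 66.8 in WT against 6.56 and 22.1 in K20R. Both were lower in K20R on all 4 scales, and differences as low as theirs were found in 0.709 and 0.693 percent of the common regions of the series. A further 3 regions, chosen after their values were seen, had no peak in 1 K20R list and a weak one in the other. The one 98.4 kb upstream had 72.7 and 69.1 in WT and 33.4 in K20R 2. The one 9.0 kb upstream had 65.0 and 68.3 in WT and 10.9 in K20R 2. In the gene, 46.9 kb downstream, the values were 48.5 and 56.2 in WT and 3.49 in K20R 1. The reverse pattern, with a peak in both K20R lists and in 1 WT list, was found at 3 of the 131 regions. Its share over the series was not computed and the WT lists were longer, so this count is not read as a trait of these loci. Of the 3, that at Tcf7l2 lay 22.6 kb upstream, with 36.4 in WT 1, no peak in WT 2 and 51.3 and 60.8 in K20R. The others were at Tcf7, 20.9 kb downstream, with 43.6 in WT 2 against 13.8 and 25.5, and at Lef1, 46.1 kb downstream, with 39.1 in WT 2 against 27.1 and 35.1. Among the common regions of Tcf7l2, chr19:55729105-55730049, 12.2 kb upstream, was higher in K20R, with 40.0 and 36.8 against 19.0 and 19.8 in WT, on every scale. The intronic region 136.0 kb downstream had percentiles of 37.2 and 51.1 in WT against 24.7 and 44.2 in K20R. At 167.3 kb downstream they were 52.5 and 63.2 against 51.5 and 66.0. Both overlapped between the genotypes.

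At Lef1, 6 of the 10 common regions ranked lower in K20R (60%) and 1 higher (10%), beside 34.8 and 18.6 percent over the series. The largest downward difference was at the edge of the window, at chr3:130961857-130962771, 148.0 kb upstream. Its percentiles were 72.8 and 82.0 in WT against 38.1 and 32.0 in K20R, its summit held 42 and 78 reads against 18 and 20, and its printed sequence holds an AGATAAG match. Next came chr3:131019340-131020377, 90.5 kb upstream, with 54.2 and 62.4 in WT against 33.0 and 31.3 in K20R. Close to the promoter, chr3:131105841-131107991, 3.4 kb upstream, had 58.2 and 57.9 in WT against 37.6 and 36.0 in K20R. In each of the 3, both K20R lists lay below both WT lists on every scale. Within an intron a region 8.4 kb downstream, also chosen after its values were seen, had percentiles of 76.8 and 75.7 in WT, none in K20R 1 and 26.3 in K20R 2.

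The region of Lef1 that ranked higher in K20R was chr3:131083540-131085557, 25.5 kb upstream. It had percentiles of 77.9 and 83.7 in WT against 90.1 and 85.2 in K20R, with 61 and 109 reads at the summit against 101 and 143. By fold the genotypes overlapped there. Its printed sequence holds a CTTTGAT match near the summit. Behind the gene lie introns of Hadh, which encodes an enzyme of fatty acid oxidation. There the region 127.6 kb downstream had percentiles of 75.7 and 82.9 in WT against 69.6 and 73.8 in K20R, and the genotypes overlapped by fold. The region 135.5 kb downstream had 72.5 and 77.7 against 67.4 and 61.1 and was lower in K20R on each scale. In the gene, 98.3 kb downstream, the percentiles of 9.3 and 8.69 in WT against 6.56 and 5.64 were lower in K20R, as was the centred level, but by fold K20R was higher and ranked anew the genotypes overlapped. At 104.6 kb downstream the percentiles were 40.3 and 34.7 against 37.0 and 53.2, and past its end, 117.8 kb downstream, they were 29.4 and 43.9 against 38.9 and 53.8. Both overlapped in rank and were higher in K20R by fold and when ranked anew. On the centred level the first overlapped and the second, which holds a CTCF match, was lower in K20R.

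At Tcf7, 9 of 18 common regions ranked lower in K20R (50%) and 4 higher (22.2%), beside 34.8 and 18.6 percent over the series. When ranked anew, 3 were lower (16.7%) and 4 higher (22.2%), beside 25.5 and 29.2 percent. Of the 18, 4 had their summit in a promoter of another gene, Skp1a, Vdac1 or 9530068E07Rik. The Skp1a promoter was among the 9 lower ones. The largest downward difference was at chr11:52332511-52333297, 50.0 kb upstream. It had percentiles of 52.3 and 74.8 in WT against 18.1 and 3.93 in K20R, with summits of 22 and 48 reads against 14 and 10. The region chr11:52299425-52300152, 16.6 kb upstream, was weak in WT with 36.0 and 26.0 and weaker in K20R with 9.86 and 0.487. Both were lower on all 4 scales. The region 62.5 kb downstream had 68.8 and 64.9 in WT against 53.4 and 56.7 in K20R, and overlapped on the centred level.

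Higher ranks at Tcf7 lay on both sides of the gene. The region chr11:52224034-52224880, 58.5 kb downstream, was higher in K20R, with 68.9 and 60.4 against 46.9 and 39.6 in WT on every scale. The region 107.1 kb upstream had 45.7 and 41.6 in WT against 54.2 and 47.7 in K20R, with an overlap by fold. The region 138.5 kb upstream, with the CTCF match shown above, had 17.8 and 14.1 against 25.9 and 25.7 and overlapped on the centred level. Of its strong distal regions, the one 63.8 kb upstream had 85.3 and 89.0 in WT against 83.6 and 78.9 in K20R, lower by rank but not when ranked anew. The one 114.9 kb downstream had 66.2 and 59.9 against 68.7 and 67.8, higher except by fold. The one in the gene, 28.9 kb downstream, had 65.4 and 60.1 against 69.4 and 55.9 and overlapped.

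At Tcf7l1, 7 of 17 common regions ranked lower in K20R (41.2%) and 2 higher (11.8%), beside 34.8 and 18.6 percent over the series. Of the lower ones 5 lay in the gene body of Tcf7l1, and both higher ones lay upstream of it. In its introns, chr6:72699020-72699965, 89.6 kb downstream, had percentiles of 51.5 and 47.9 in WT against 18.1 and 8.69 in K20R. The region chr6:72711237-72712202, 77.5 kb downstream, had 43.5 and 59.6 against 8.52 and 27.9, and its printed sequence holds a TCF/LEF match. The region chr6:72747897-72749296, 40.7 kb downstream, had 65.2 and 72.0 against 38.8 and 40.9. All 3 were lower in K20R on each of the 4 scales. An intronic region 64.5 kb downstream, chosen after its values were seen, had 58.6 and 75.7 in WT, none in K20R 1 and 25.6 in K20R 2.

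Upstream of Tcf7l1, chr6:72794574-72795746 at 5.9 kb had percentiles of 57.2 and 63.4 in WT against 72.1 and 83.3 in K20R. Its summit held 28 and 48 reads in WT and 54 and 115 in K20R, and the centred log2 level was 1.06 higher. The region chr6:72828206-72829363, 39.5 kb upstream, had 53.7 and 51.5 in WT and 74.0 in both K20R lists, with summits of 38 and 53 reads against 66 and 101. Both were higher in K20R on all 4 scales, and the first holds the AP-1 match printed above. The region 141.8 kb downstream had 33.8 and 53.4 against 47.0 and 57.7 and overlapped, but was higher in K20R by fold and when ranked anew.

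The strongest distal regions of the 4 loci also lay at Tcf7l1. At chr6:72926317-72927637, 137.7 kb upstream, the percentiles were 97.9 and 98.9 in WT against 97.2 and 96.0 in K20R. This region lies beyond the promoter of another gene, Kcmf1, whose summit is 110.8 kb upstream. At chr6:72677233-72678595, in an intron 111.5 kb downstream, they were 95.9 and 96.8 against 92.9 and 93.4. The ranks were lower in K20R by a few points at both, also when ranked anew, while the genotypes overlapped by fold at both and on the centred level at the second. The first window holds 3 AP-1 matches, more than any other of the 131.

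Sequence was not used to choose the regions. A TCF/LEF match within 100 bp of the summit was found in 10 of the 131 (7.63%), beside 8.01% of all 80380 regions. The 10 lay at Lef1 and Tcf7l1, with 4 each, and at Tcf7 and Tcf7l2, with 1 each. They included the Tcf7 promoter and the Lef1 region 25.5 kb upstream. A match is a run of letters and does not show that a factor binds there. CTCF matches were found in 6 (4.58%, beside 5.97%), AP-1 matches in 7 (5.34%, beside 5.34%), GATA matches in 7 (5.34%, beside 4.15%), T-box matches in 3 (2.29%, beside 1.25%) and octamers in 2 (1.53%, beside 1.83%). The median GC content of the windows was 53.7%, beside 53.2% over the series. None of the 15 WT-restricted regions had a CTCF match, beside 2.58% of all WT-restricted regions, and 2 each had a TCF/LEF, a GATA and an AP-1 match. All of these shares rest on few regions.

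The promoters of other genes of the pathway were read from a list of 36 genes, of which 33 had a promoter peak in all 4 lists. Both K20R percentiles lay below both WT percentiles at 15 (45.5%) and above at 2 (6.06%), beside 32.2 and 16.1 percent of 14007 promoters of protein-coding genes. Ranked anew, 11 were lower and 5 higher, beside 19.8 and 27.9 percent. No peak lay within 1000 bp of the first annotated start of Ctnnb1, the gene of β-catenin, or of Cdx4 in any list. Any further start sites of these genes were not read, so this does not show that their promoters lack a peak. The start of Aes, a short Groucho gene, had a peak in 3 lists, with no peak in WT 1, a percentile of 8.03 in WT 2 and percentiles of 31.2 and 28.7 in K20R.

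Among 15 nuclear partners and corepressors of the TCF factors, 6 were lower (40%) and 1 higher (6.67%). Over all promoters the shares were 32.2 and 16.1 percent. Bcl9, which links β-catenin to Pygopus, had percentiles of 89.4 and 92.7 in WT against 76.9 and 80.7 in K20R. The corepressor genes Ctbp1, with 91.8 and 92.5 against 82.6 and 78.7, and Ctbp2, with 86.9 and 89.8 against 72.8 and 78.0, were lower as well. Chd8, a chromatin remodeller that binds β-catenin, had 99.8 and 98.9 against 93.1 and 91.0. Nlk, a kinase that phosphorylates TCF factors, had 92.3 and 95.5 against 91.5 and 91.7 and overlapped when ranked anew. Ctnnbip1, which blocks the contact of β-catenin with TCF factors, had 99.6 and 99.2 against 98.7 and 98.9 and overlapped on the centred level. The Groucho gene Tle1 was the one that ranked higher, with 95.5 and 96.5 in WT against 97.6 and 97.8 in K20R.

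Of 5 genes of the complex that destroys β-catenin, 2 were lower (40%) and 0 higher by rank within the whole list. Over all promoters these shares were 32.2 and 16.1 percent. When ranked anew, 0 of the 5 were lower and 2 higher. The scaffold gene Axin1 had 98.8 and 98.2 in WT against 98.1 in both K20R lists. It overlapped when ranked anew and was higher in K20R on the centred level. Btrc, which encodes the ubiquitin ligase subunit, had 99.4 and 98.8 against 98.5 and 98.4 and overlapped on both other scales. The kinase gene Gsk3a, with 91.1 and 94.6 against 94.5 and 94.6, and Amer1, with 70.4 and 74.7 against 72.3 and 81.1, overlapped within the whole list and were those higher in K20R when ranked anew. Of 13 Wnt targets and feedback genes with a promoter peak, 7 were lower (53.8%) and 1 higher (7.69%), beside the same shares over all promoters. The mesoderm gene T (Brachyury) had percentiles of 83.1 and 82.8 in WT against 66.7 and 65.6 in K20R. Mesoderm promoters did not all rank lower. Of the 10 pluripotent, epiblast and early mesoderm markers, T among them, 5 were lower (50%) and 3 higher (30%). Ranked anew, 4 were lower and 4 higher. Lower beside T were Fgf5, with 93.2 and 89.1 in WT against 61.2 and 63.4 in K20R, Dnmt3b and Nodal. The mesoderm gene Mixl1 was lower too, with 83.0 and 82.8 in WT against 77.8 and 79.7 in K20R. Higher were Mesp1, with 43.5 and 43.4 against 67.3 and 72.4, and Eomes, with 72.8 and 65.8 against 75.5 and 74.1. The third was Pou5f1, and Mesp1 was lower on the centred level. Sp5 had 85.5 and 86.5 against 69.2 and 76.1, and Tnfrsf19 had 81.2 and 86.5 against 70.3 and 70.4. The feedback inhibitors Axin2, with 90.8 in both WT lists against 86.2 and 86.4, and Dkk1, with 90.2 and 80.4 against 72.3 and 74.6, were lower too. Cdx2, a gene of the posterior embryo, had 77.2 and 83.3 against 71.6 and 72.6, and Notum, an enzyme that inactivates Wnt proteins, 69.8 and 80.1 against 57.7 and 69.0, the latter overlapping when ranked anew. Nkd1, a feedback inhibitor, had 86.5 and 88.0 in WT against 91.2 and 93.2 in K20R.

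**Figure D4:**
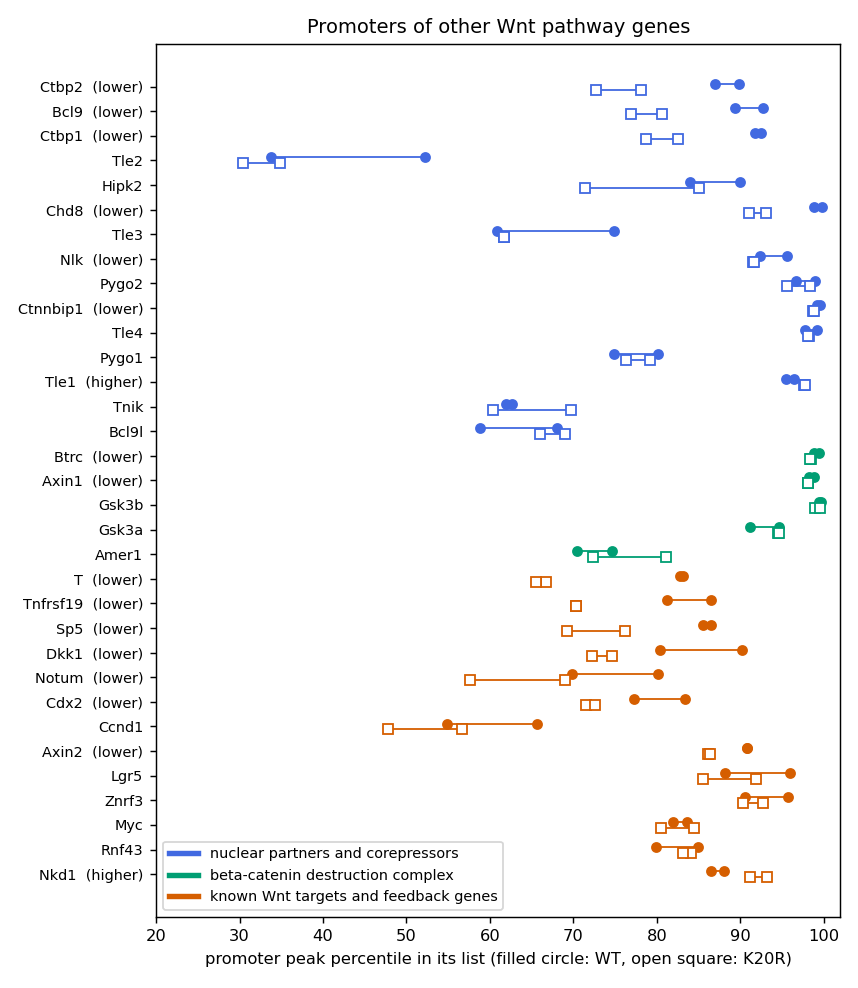
Promoter peak percentiles of the 33 other Wnt pathway genes with a peak in all 4 lists, with filled circles for the 2 WT lists and open squares for the 2 K20R lists, coloured by group. Genes marked lower (15) or higher (2) have genotypes that do not overlap; the widest gaps among the targets are at T, Tnfrsf19 and Sp5.

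The edge of the window was set by distance and not by a measured value. Just inside it, the last region of Tcf7l1 was the strong one 137.7 kb upstream and the first of Lef1 the one 148.0 kb upstream described above. Just outside it, a region 152.7 kb upstream of Tcf7l2 had percentiles of 86.4 and 92.1 in WT against 72.8 and 67.2 in K20R. Outside Tcf7, 153.7 kb downstream, they were 56.2 and 51.7 against 50.1 and 33.4. Outside Tcf7l1, 151.5 kb upstream, they were 21.6 and 48.7 against 6.56 and 34.2. Outside Lef1 the region 164.5 kb upstream had 63.2 and 69.2 against 67.1 and 70.1, and the one 161.5 kb downstream 89.0 and 86.6 against 88.2 and 88.4. Lower K20R ranks were thus seen just beyond the window at Tcf7l2 and Tcf7, while the genotypes overlapped at Tcf7l1 and Lef1.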

How the data were processed

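ATAC-seq peak lists of 2 WT and 2 CTCF-K20R libraries of day 4 EBs were used, described by the study as biological replicates, and grouped by the genotype and replicate number of the labels. Per the study's methods, trimmed reads were aligned to mm10 with Bowtie2, filtered for mapping quality, duplicates and blacklisted regions, and peaks were called with MACS2. Settings were stated as default, whereas the lowest deposited −log10 p was 2.00 to 2.02, and the rule by which called peaks were left off the lists is not given in the sources used here. The authors deposited for each peak a score, a fold ratio of the summit over its background, and the −log10 of its p-value and q-value. Read depths are not given in the lists, so presence and rank were compared without a count test.

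Regions, ranks, summit reads (whole numbers within 0.05 for all peaks) and motif matches were computed with Python 3.11.15, pandas 2.3.3, numpy 2.4.6 and scipy 1.17.1, and the steps were tested on simulated lists. Genes are those of GENCODE vM21 on mm10, and a promoter is the 1000 bp on both sides of a start site. For pathway and marker genes and for the shares over all promoters, only the first start of each gene was read. Regions named are those at start sites, restricted regions with a mean percentile of at least 50, and at each locus the 3 strongest distal common regions and the 3 largest differences in each direction. Pathway genes are named where the genotypes do not overlap. One gene with a promoter pattern like that of a member is not reported here. The members, lists and motifs were chosen with earlier results of these data known. In their percentiles, libraries that share a replicate number did not deviate together, with a correlation of 0.0532 over 38527 common regions. Percentiles within a list cannot show a difference between whole lists. There, libraries with the same number were alike. The median fold was 4.68 in WT 1 and 4.73 in K20R 1, against 5.85 in WT 2 and 6.04 in K20R 2. Alternatives were another joining rule, a stricter q, lists of equal length, a 50 kb window, other scales, a replicate block and leaving out each library.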

Additional observations from a re-analysis of the deposited data

How the results depend on the processing

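With 2 libraries a genotype and no read counts, a missing peak is not a measured level, and ranks depend on the length of each list. With peaks of −log10 q under 5 dropped, there was 1 K20R-restricted region, and 13 of 38 common regions ranked lower in K20R and 6 higher. With lists of equal length, 7 regions were WT-restricted, and 15 of 46 common regions ranked lower and 14 higher. A 50 kb window, which holds fewer regions, gave 13 lower and 5 higher of 31. Counting only places with no missing peak number in the other genotype left 5 WT-restricted and 0 K20R-restricted regions. By fold, ranked anew or by centred level, 1 of the 6 promoter regions was lower in place of 2. Leaving out each library in turn gave 18 to 32 WT-restricted and 3 to 14 K20R-restricted regions. It also gave 29 to 36 lower and 11 to 17 higher regions, and 3 lower promoters each time. With 1 list left in a genotype, the rules for restricted, lower and higher regions are easier to meet. A rise above the counts from all lists therefore does not by itself show that a result depends on a library. Shares over the series under these settings were not computed. The highest WT-restricted count, 32, came without WT 1 and the highest K20R-restricted count, 14, without K20R 1. With a replicate block, K20R against WT within each number, 29 common regions were lower and 12 higher, and 2 promoter regions lower. The other counts stayed within 1.5 times. Of 30 comparisons of single promoter regions with other scales or within a replicate number, 22 kept their side, 8 moved between overlap and no overlap or changed sign within a number, and 0 reversed. A reversal could be counted only on another scale and at a region whose genotypes did not overlap, so the 0 says little. Overlapping regions counted as kept even where the difference changed sign, as at Lef1, from -0.58 to 4.06 by fold.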
